A study of Camelus dromedarius with 10 samples.

Results

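The cysteine and aspartic cathepsins examined here are 9 genes, CTSB, CTSC, CTSD, CTSF, CTSH, CTSK, CTSL, CTSS and CTSZ, out of 22444 Ensembl gene IDs counted in the supraoptic nucleus (SON) of the dromedary camel. They were taken as the count rows whose ID the study's supplementary gene tables pair with these symbols, and all 9 were found. CTSD is an aspartic protease and the other 8 are cysteine proteases. Total RNA depleted of ribosomal RNA was sequenced from the rostral SON of 5 control and 5 water-deprived (WD) males aged 4 to 5 years, 1 library per camel. Control camels drank freely, and WD camels received food but no water for 20 days. Both groups ate alfalfa hay and lived outdoors on a ranch. Libraries are named here by condition and replicate number, CON2, CON3, CON4, CON5 and CON13 against WD6, WD7, WD8, WD9 and WD15. The SON was punched from frozen slices, so neurones, glia, vessels and blood cells of the punch all contributed RNA. In such bulk samples, more cells of a type and more RNA per cell cannot be told apart.

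Cathepsins are proteases of the lysosome and endosome. They are made as inactive proenzymes and become active in an acidic compartment, where they break down proteins delivered by endocytosis, phagocytosis and autophagy. Some are found in nearly every cell, among them CTSB and CTSD, whereas CTSS is best known from microglia, macrophages and other cells that present antigen, where it trims the invariant chain of MHC class II. The SON holds the magnocellular neurones that release vasopressin and oxytocin.

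Library totals ran from 1665098 to 8126641 counts. Because 5 gene IDs took 27.7% to 76.1% of a library, the depth left for other genes varied more than the totals. Levels are given in CPM, read-pair counts scaled to a common library size after TMM normalization, on which 1 count was worth 1.20 CPM in CON13, 0.475 CPM in WD6 and 0.0864 to 0.237 CPM in the other libraries. The magnocellular markers PDYN, PCSK1, VGF, SIM1 and OTP were counted in every library. Vasopressin and oxytocin themselves were not analysed here.

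All 9 cathepsins were detected in every library, and none passed the main test for a difference between WD and control. With edgeR, whose p-values were adjusted by Benjamini-Hochberg over 14432 genes and called at 0.05, 0 of the 8 members tested were differentially expressed genes (DEGs), against 0.499% of all genes tested. CTSL had too few counts to be tested. An unadjusted p under 0.05 was reached by 3 of the 8 (CTSS, CTSC and CTSZ), and by 9.31% of all genes. DESeq2's Wald test called 1 of 9, CTSS, higher in WD, against 1.27% of the genes it tested in both directions and 0.638% in this direction. The log2 fold change (LFC) was above 0 for 6 of the 8, with a median of 0.34, beside 51.9% of all genes and a median of 0.02. When libraries were scaled by their totals alone, the median of all genes moved to 0.16 and that of the 8 members to 0.50. The groups did not overlap for 2 of the 8 members (CTSS and CTSB, both higher in WD), a pattern shown by 2.62% of all genes tested, and by 1.34% with WD above control.

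**Figure D1:**
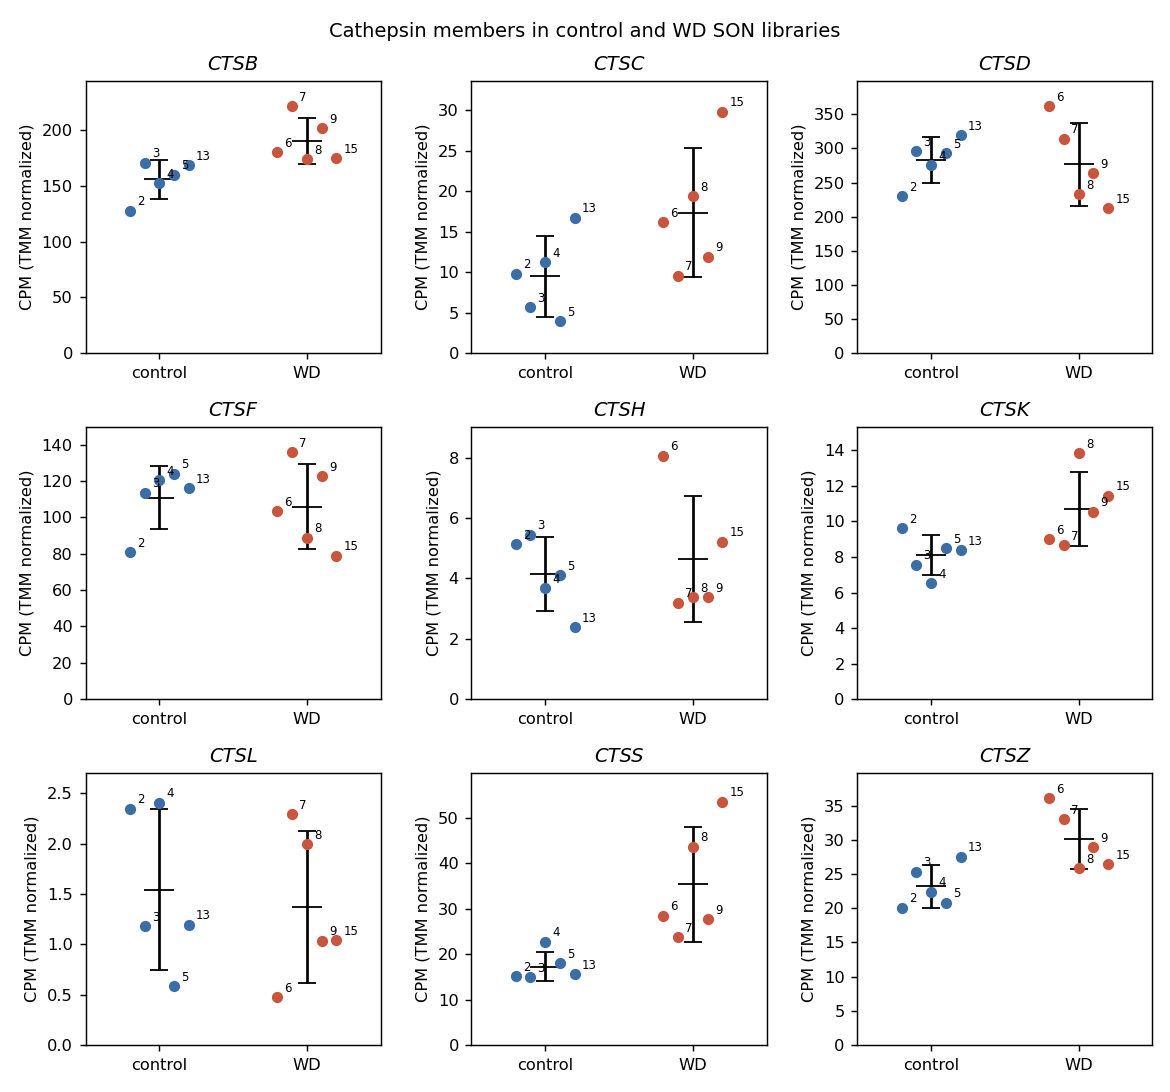
Levels of the 9 cathepsins in CPM (y axes, each from 0) in 5 control and 5 WD libraries. Points are libraries with their replicate number, and the black bar and whiskers are the mean and SD (n = 5). CTSS and CTSB are the panels in which every WD point lies above every control point, and CTSL lies under 2.5 CPM throughout.

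CTSS, the endopeptidase that stays active at neutral pH, had the smallest p of the family. Its level in control libraries was 15.2 CPM in CON2, 14.9 in CON3, 22.7 in CON4, 18.0 in CON5 and 15.5 in CON13. In WD libraries it was 28.5 CPM in WD6, 23.7 in WD7, 43.6 in WD8, 27.7 in WD9 and 53.5 in WD15. Every WD library was above every control library, but the gap between CON4 and WD7 was small and the WD libraries were widely spread, with WD8 and WD15 far above the other WD camels. The means were 17.3 ± 3.29 CPM in control and 35.4 ± 12.7 CPM in WD (SD, n = 5), a ratio of 2.05. The LFC was 1.01 ± 0.24 (SE), with a 95% interval from 0.51 to 1.52. Its adjusted p was 0.0857 with edgeR, rank 93 of 14432 genes by p, and 0.020 with DESeq2, which also used another filter on low counts. With a term for depth group (the 5 shallowest libraries, not counting the dominant IDs, against the others), edgeR's adjusted p was 0.0297. That fit called 1.55% of all genes, against 0.499% without the term. With the RNA integrity number as a covariate, edgeR's adjusted p was 0.189 (LFC 0.80), and with fragment size it was 0.109 (LFC 0.94). The call thus depends on how the analysis was set up. Without WD15 the LFC was 0.82 and edgeR's adjusted p was 0.284. CON13 held 13 CTSS counts and WD6 60, and without these libraries, left out together, the LFC was 1.03.

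**Figure D2:**
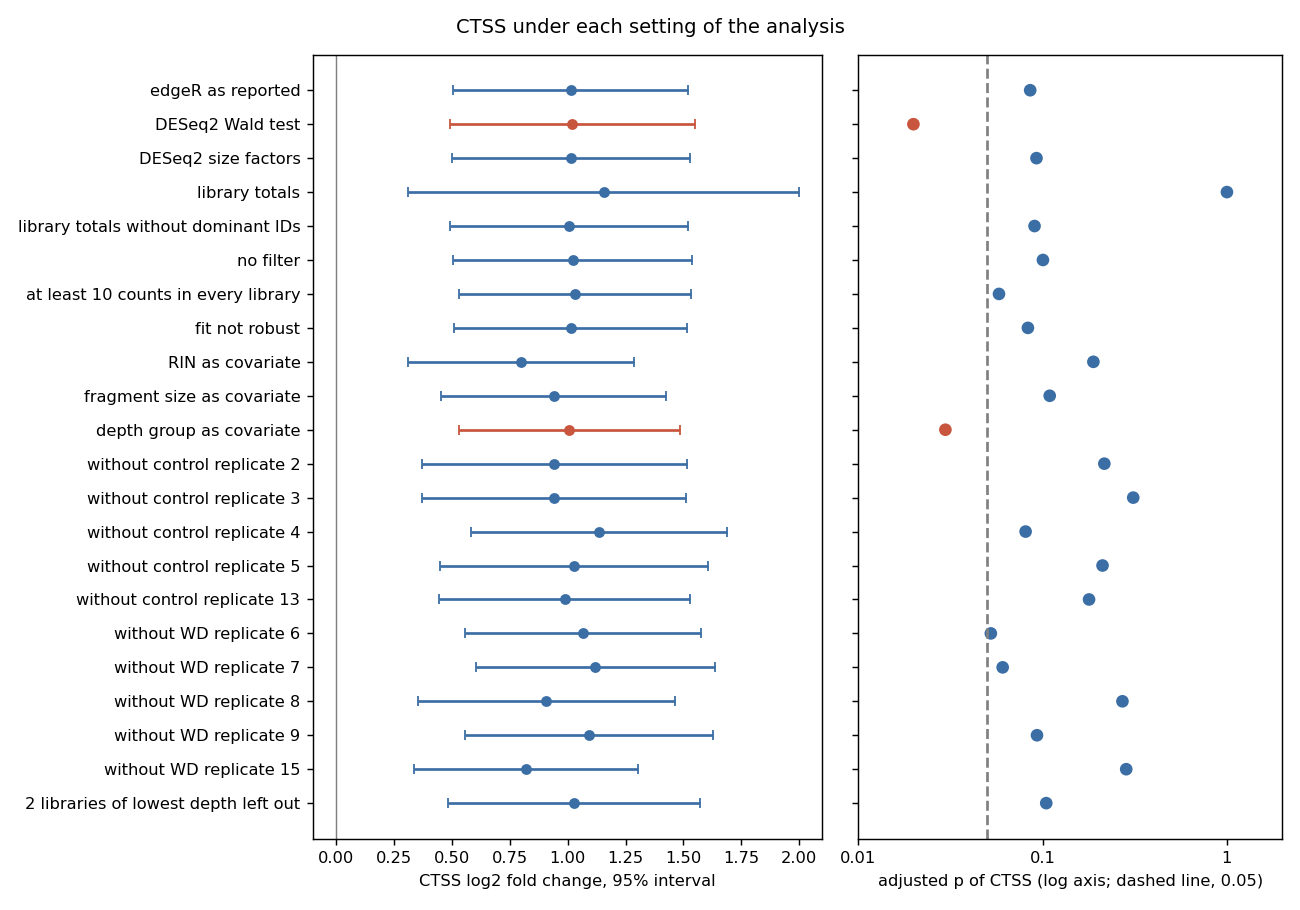
CTSS under each way of running the analysis. The left panel gives the LFC with its 95% interval and the right panel the adjusted p on a log axis, red where it is at most 0.05. The LFC stays between 0.80 and 1.16 on every line, whereas only DESeq2's Wald test and the edgeR fit with a term for depth group bring the adjusted p under the dashed line.

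CTSK is the neighbour of CTSS in the gene order of the RefSeq assembly mCamDro1.pat, where the order runs HORMAD1, CTSS, CTSK, ARNT. CTSK encodes the collagen-degrading cathepsin of osteoclasts. Control libraries held 6.54 to 9.61 CPM of CTSK with a median of 8.37, and WD libraries 8.67 to 13.8 CPM with a median of 10.5. CON2 was above WD6 and WD7, so the groups overlapped. Its LFC was 0.42 ± 0.24 (SE), with a 95% interval from -0.09 to 0.92 and an edgeR adjusted p of 0.635. The log2 ratio of CTSS to CTSK within a library was 1.07 ± 0.43 in control and 1.67 ± 0.33 in WD (SD, n = 5), a difference of 0.60. The groups overlapped in this ratio, at 0.65 to 1.78 in control and 1.39 to 2.22 in WD.

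CTSS had been picked for ratios to other genes with earlier results known, so they are given as a description, without a test. The log2 ratio of CTSS to the mean of the other 8 members was -0.33 ± 0.29 in control and 0.43 ± 0.49 in WD (SD, n = 5), a difference of 0.76. With the median of the other members in place of the mean, the difference was 0.48. The groups overlapped, and WD7 was the WD library that fell within the control range of the ratio, at -0.12. As a share of all counts for the 9 genes, CTSS took 2.30% to 3.68% in control libraries and 3.16% to 9.02% in WD libraries, with WD7 lowest and WD15 highest among the latter.

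CTSC, or dipeptidyl peptidase I, activates the granule serine proteases of leukocytes and was the other member with an LFC near 1. It stood at 9.82 CPM in CON2, 5.68 in CON3, 11.2 in CON4, 3.95 in CON5 and 16.7 in CON13. The WD libraries had 16.1 CPM in WD6, 9.57 in WD7, 19.4 in WD8, 11.9 in WD9 and 29.8 in WD15. The groups overlapped widely. The control value of 16.7 CPM rests on 14 counts, and WD7 was below both CON2 and CON4. The means were 9.49 ± 5.02 CPM in control and 17.4 ± 7.91 CPM in WD (SD, n = 5). The LFC of 0.997 ± 0.36 (SE) had a 95% interval from 0.23 to 1.76 and an edgeR adjusted p of 0.364, so CTSC had almost the same LFC as CTSS with a wider error. With the RNA integrity number (RIN) as a covariate, the LFC was 0.64 for CTSC and 0.80 for CTSS.

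The other exopeptidases of the family are CTSZ and CTSH. CTSZ, a carboxypeptidase also called cathepsin X, had 20.1 to 27.5 CPM in control (median 22.4) and 25.8 to 36.1 CPM in WD (median 28.9). CON13, with 23 counts, was the control library that reached into the WD range, above WD8 and WD15. The LFC was 0.39 ± 0.18 (SE) and the edgeR adjusted p 0.529. As a share of the counts of the 9 genes, CTSZ took 3.28% to 4.07% in control and 4.28% to 4.85% in WD, without overlap. It was the only member of the 9 whose shares did not overlap, and a share also moves with the counts of the other members. CTSH, chiefly an aminopeptidase, was counted 2 to 39 times per library, at 2.39 to 5.44 CPM in control and 3.19 to 8.07 CPM in WD. Its LFC of 0.04 had a 95% interval from -0.77 to 0.85, which leaves room for a rise or a fall of that size, and the sign turned in several of the alternative settings.

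CTSB, a cysteine protease that acts both as an endopeptidase and as a peptidyl-dipeptidase, differed little in mean although its groups did not overlap. Its control libraries held 128 CPM in CON2, 171 in CON3, 152 in CON4, 160 in CON5 and 169 in CON13. Its WD libraries held 180 CPM in WD6, 221 in WD7, 174 in WD8, 202 in WD9 and 175 in WD15. The lowest WD library, WD8, was just above the highest control library, CON3. The means were 156 ± 17.4 CPM and 190 ± 20.5 CPM (SD, n = 5), and the LFC of 0.29 ± 0.16 (SE) had an edgeR adjusted p of 0.607 and a 95% interval from -0.04 to 0.62. DESeq2 gave CTSB an adjusted p of 0.347.

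CTSD, the main aspartic protease of the lysosome, had an LFC near 0. Control libraries ranged from 230 to 319 CPM (median 293) and WD libraries from 212 to 362 CPM (median 264), and the highest and lowest of all 10 were both WD, WD6 and WD15. The LFC was -0.03 ± 0.18 (SE, n = 5 per group), with a 95% interval from -0.41 to 0.35. CTSF, a cysteine protease with a long propeptide, was alike, at 80.9 to 124 CPM in control (median 116) and 79.0 to 136 CPM in WD (median 103). CON2, at 80.9 CPM, stood well below the other control libraries. Its LFC was -0.06 with a 95% interval from -0.45 to 0.33. For both genes the sign was positive when libraries were scaled by totals alone, where the median of all genes was positive too. WD15, the highest library for CTSS and CTSC, was the lowest of all 10 for CTSD and CTSF.

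CTSL, a cysteine endopeptidase, was near the limit of counting. It had 91 counts over all 10 libraries, between 1 (CON13 and WD6) and 21 (CON4), or 0.586 to 2.41 CPM in control and 0.475 to 2.30 CPM in WD. The filter on low counts removed it. DESeq2, which kept it, gave an LFC of -0.16 ± 0.66 (SE) with a 95% interval from -1.44 to 1.13. A change of a size seen for CTSS was not detectable at this depth. CTSV, the closest relative of CTSL, was counted 1215 times. How read pairs shared between such related genes were counted is not given in the sources used here, so the split between CTSL and CTSV is uncertain.

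**Figure D3:**
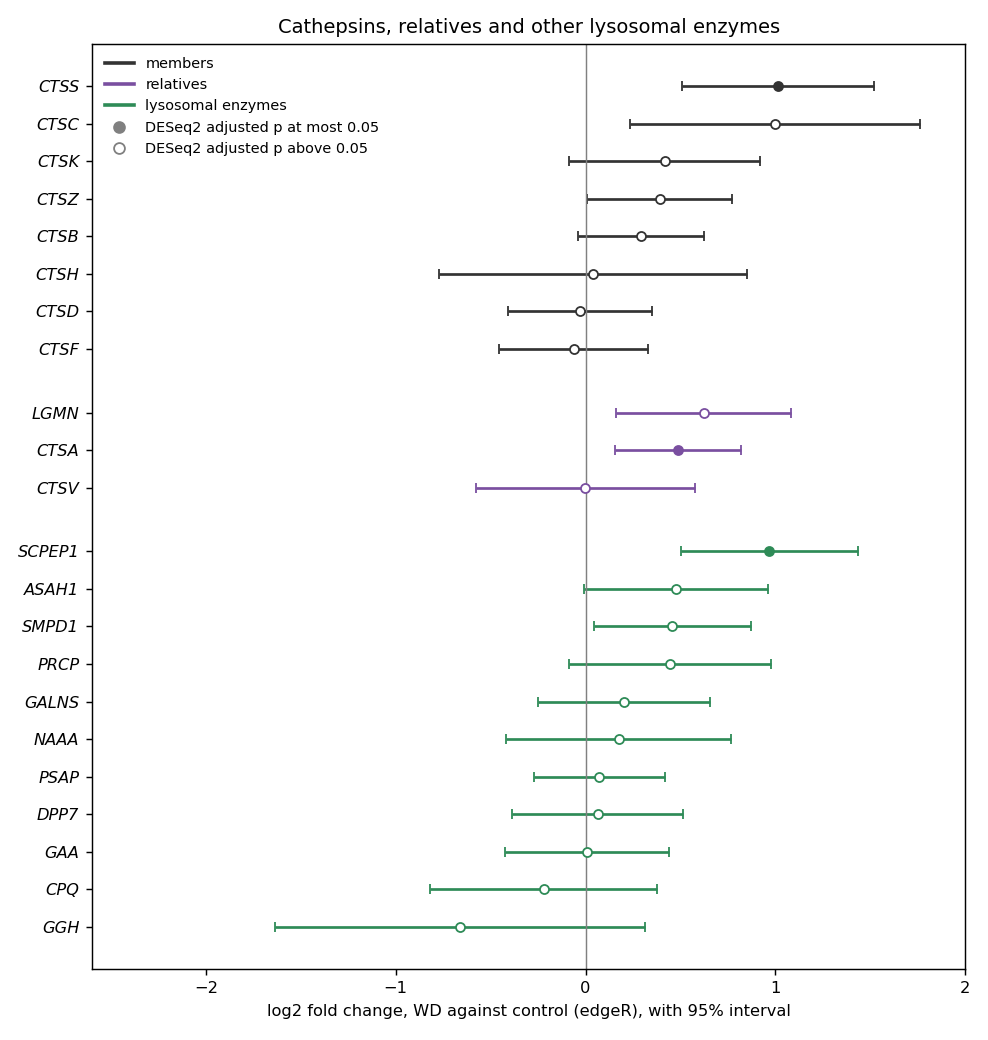
LFC of WD against control (x axis, log2) with 95% intervals from edgeR for the 8 cathepsins tested, 3 relatives and 11 other lysosomal genes. The last group is labelled as enzymes but includes PSAP, the saposin precursor gene. Filled points have a DESeq2 adjusted p of at most 0.05, and no gene shown passed edgeR's threshold. CTSS, CTSA and SCPEP1 are the filled points, all to the right of 0.

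Between camels of the same group, CTSD and CTSZ varied together. After group means were subtracted from log2 CPM, Pearson's r was computed over the 10 libraries for 28 pairs of the 8 members tested, with exact permutation p-values from the 14400 pairings within groups. Of the 28, r was above 0 for 12 and below 0 for 16, and 1 pair had an adjusted p of at most 0.05. That pair was CTSD and CTSZ, with r = 0.89 (exact permutation p = 0.00132, adjusted p = 0.0369) and Spearman's rho = 0.90 (exact permutation p = 0.00333, adjusted p = 0.0933). Its r was 0.85 without WD6 and WD15. CTSB and CTSF had r = 0.88 (exact permutation p = 0.00569, adjusted p = 0.0797) and rho = 0.79 (exact permutation p = 0.0174, adjusted p = 0.215), and r was 0.62 without CON2 and WD7. All 6 pairs among CTSB, CTSD, CTSF and CTSZ, a set picked after the values were seen, had r from 0.53 to 0.89. CTSS and CTSC had r = 0.53 (exact permutation p = 0.110, adjusted p = 0.256) and rho = 0.60 (exact permutation p = 0.0509, adjusted p = 0.247), with r = 0.52 without CON5 and WD15. These values share libraries and scaling, so a library's depth enters both genes of a pair.

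**Figure D4:**
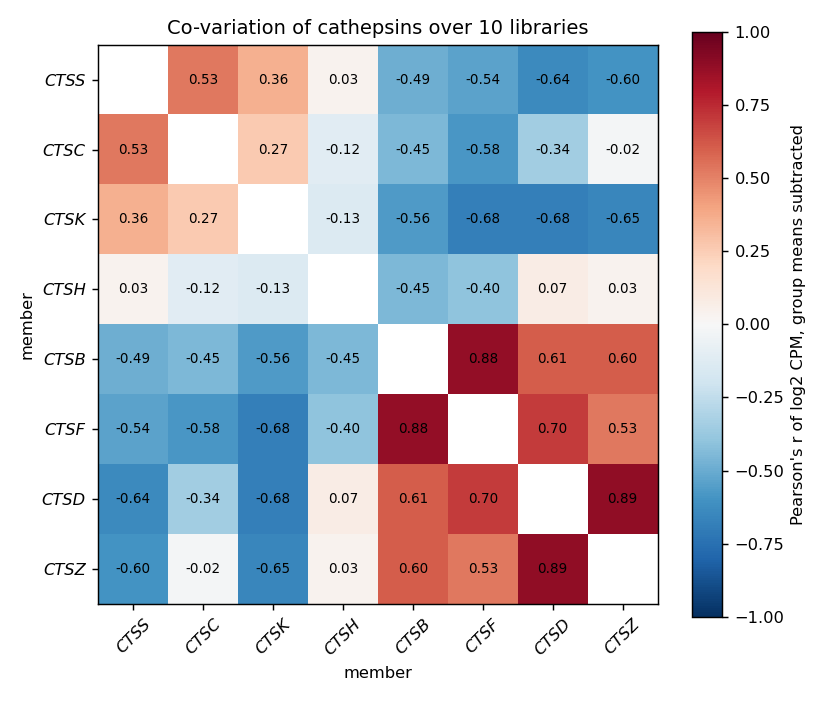
Pearson's r of log2 CPM between members over 10 libraries after subtraction of group means, from -1 (blue) to 1 (red). CTSB, CTSF, CTSD and CTSZ form a red block with r from 0.53 to 0.89, and the pairs of CTSS or CTSK with these 4 genes are blue.

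None of 11 markers of microglia was a DEG by edgeR or DESeq2. Their LFC was above 0 for 10 and -0.33 for FGR, a kinase of myeloid cells, with a median of 0.66, and 6 had an unadjusted p under 0.05 with edgeR. IRF8, a transcription factor of microglia and macrophages, had an LFC of 0.98 ± 0.30 (SE) and ITGB2, the integrin beta chain of leukocytes, one of 0.96 ± 0.36, with edgeR adjusted p-values of 0.229 and 0.395. Their summed level was 335 to 533 CPM in control and 401 to 1133 CPM in WD, and no marker was at 0 in any library. WD15 was the highest library for 10 of the 11, compared with 11.5% of all genes tested, and was also the highest for CTSS and CTSC. WD8, the next highest for CTSS and CTSC, was the next highest in the marker sum.

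The log2 ratio of CTSS to the mean of the 11 markers was -0.39 ± 0.48 in control and 0.05 ± 0.22 in WD (SD, n = 5). The difference was 0.44, or 0.03 with the median of the markers, and the groups overlapped. CON2 had a marker sum of 533 CPM, above WD7 and WD9, and yet one of the lowest CTSS levels. The part of microglia in the CTSS values was not tested. Another 9 microglial genes were paired with an ID only in a gene table that was at hand in a shortened copy, sorted by p, so they were selected by outcome. Among these, C1QA, which encodes a chain of complement C1q, was a DEG by edgeR, with an LFC of 1.63 ± 0.32 (SE) and an adjusted p of 0.0232. DESeq2 called it together with C1QB and C1QC. In the same shortened copy were CD163 and CD14 of macrophages and monocytes, with LFCs of 1.46 and 1.20, which neither tool called. Their summed level was 61.0 to 152 CPM in control and 90.4 to 496 CPM in WD, with WD15 highest for both genes.

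**Figure D5:**
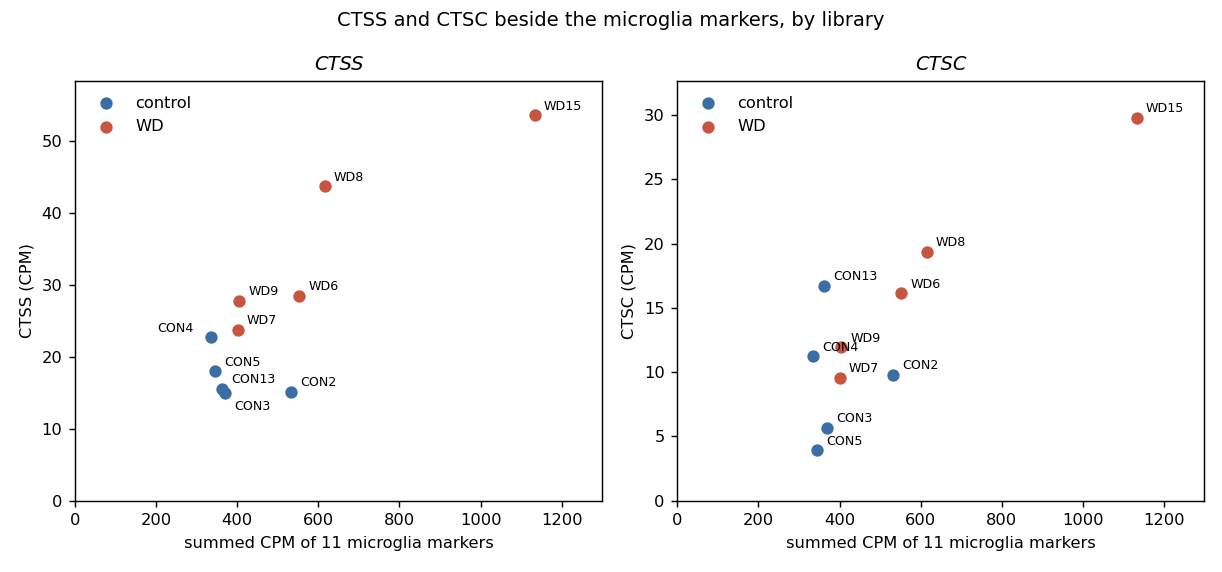
CTSS (left) and CTSC (right) in CPM against the summed CPM of 11 microglial markers, 1 point per library. WD15 lies far to the right at 1133 CPM with the highest CTSS and CTSC, and CON2 has a marker sum of 533 CPM with a CTSS level of 15.2 CPM.

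Markers of other cell types gave few calls outside the magnocellular list, which was chosen with earlier results known. The blood leukocyte markers CCR2 and ITGAL, with LFCs of -0.01 and 0.13, were DEGs by neither tool, and 0 of 2 had an unadjusted p under 0.05 with edgeR. The same list holds CD163 and CD14, given above, which have a symbol only through the copy sorted by p and so are no fair sample of it. The astrocyte markers ALDH1L1 and GJA1, paired only in the shortened copy, had LFCs of 0.55 and 0.50 and were called by neither tool. Their unadjusted p-values were 0.0164 and 0.0389 with edgeR. They are given without a count, since genes of that copy were selected by p. Of 9 oligodendrocyte lineage markers 0 were DEGs by either tool and 0 had an unadjusted p under 0.05 with edgeR. The LFC was below 0 for 8 and above 0 for 1, with a median of -0.16, and -0.52 for GPR17 and -0.31 for OLIG1 were farthest from 0. Of 10 markers of endothelium and mural cells, 7 had an LFC above 0 and edgeR called 0, with 3 under an unadjusted p of 0.05. Those were the VEGF receptors KDR and FLT1, with LFCs of 0.64 and 0.62, and HEYL, a Notch target of mural cells. SOX17, an endothelial transcription factor, had an LFC of 0.72 ± 0.50 (SE). DESeq2 called HEYL lower in WD, with an LFC of -1.15 and an adjusted p of 0.0351. ACTA2 of smooth muscle, from the shortened copy, had an LFC of -0.97 and was called by neither tool. The magnocellular markers VGF, PDYN and PCSK1 were higher and PCSK2 was lower in WD, 4 DEGs of 6 by edgeR, against 0.499% of all genes tested. The paper had already reported these 4 as DEGs from the same libraries, so their count is no independent result and no fair comparison with the other lists. The other 2, the lineage factors OTP and SIM1, had LFCs of -0.58 and -0.04, so 3 of the 6 were above 0 and 3 below, with 5 of 6 (all but SIM1) under an unadjusted p of 0.05.

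The 5 genes most like CTSS across libraries were CYBB, MOB1A, PRKD3, CALCR and NCKAP1L. They were ranked by r of log2 CPM over 10 libraries after subtraction of group means, among 2264 genes with a symbol and a mean of at least 10 CPM. Of these candidates 777 had their symbol only from a gene table at hand in a shortened copy sorted by p (MOB1A and NCKAP1L of the 5), so they were enriched for small p-values, and 38.3% had an unadjusted p under 0.05, compared with 9.31% of all genes tested. CYBB, the catalytic subunit of the phagocyte NADPH oxidase, came first with r = 0.93. MOB1A, a regulator of Hippo pathway kinases, had 0.90, PRKD3, a protein kinase D, had 0.88, CALCR, the calcitonin receptor, had 0.86 and NCKAP1L, an actin regulator of blood cells, had 0.84. Without WD15 these values were 0.90, 0.82, 0.76, 0.73 and 0.69. None of the 5 was a DEG by edgeR or DESeq2. All 5 had an unadjusted p under 0.05 with edgeR, with LFCs from 0.70 (PRKD3) to 0.85 (NCKAP1L). No member of the cathepsin family was among the 5, but CTSH, CTSK and CTSL lay under the mean of 10 CPM and were not candidates.

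Among relatives of the family, edgeR called 0 of 3 tested, with 2 under an unadjusted p of 0.05, and DESeq2 called 1 of 3, CTSA. CTSA is the serine carboxypeptidase also known as protective protein, which stabilizes beta-galactosidase and neuraminidase in the lysosome. Its level was 68.5, 86.1, 82.3, 77.7 and 86.1 CPM in CON2, CON3, CON4, CON5 and CON13. In WD6, WD7, WD8, WD9 and WD15 it was 113, 107, 96.2, 106 and 137 CPM. All WD libraries were above all control libraries, and WD15 was highest. The LFC was 0.49 ± 0.16 (SE), with an adjusted p of 0.266 with edgeR and 0.0498 with DESeq2. By qRT-PCR the authors also reported CTSA as higher in WD, in both the rostral and the caudal SON.

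LGMN, or legumain, an asparaginyl endopeptidase that cleaves other cathepsins to their mature chains, had an LFC of 0.62 ± 0.22 (SE) and an edgeR adjusted p of 0.336. It ranged from 14.3 to 26.0 CPM in control and from 21.8 to 47.3 CPM in WD, with WD15 highest, and the groups overlapped. CTSV stood at 18.6 ± 4.97 CPM in control and 18.7 ± 7.88 CPM in WD (SD, n = 5). CTSG, a serine protease of neutrophils, had 30 counts in all, at most 7 in a library, and was not tested. It was not counted in WD6 or WD8, which allows up to 1.42 and 0.461 CPM.

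The list of 11 other lysosomal genes holds enzymes and PSAP, which encodes the precursor of the saposins. Of these 11, 9 had an LFC above 0 with a median of 0.17, edgeR called 0 with 2 under an unadjusted p of 0.05, and DESeq2 called 1, higher in WD. That gene was SCPEP1, which encodes a serine carboxypeptidase related to CTSA. It had an LFC of 0.97 ± 0.22 (SE), with an adjusted p of 0.0683 with edgeR and 0.00852 with DESeq2. Its level was 19.4 ± 3.91 CPM in control and 39.0 ± 12.4 CPM in WD (SD, n = 5), without overlap between groups. GGH, which removes glutamates from folates, had the most negative LFC of the list, -0.66 ± 0.46 (SE).

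Neither the transcription factors of lysosomal genes nor other aspartic proteases gave a DEG with either tool. TFE3 and MITF of the MiT/TFE family had LFCs of 0.02 and -0.03, and TFEB one of 0.02. TFEC and PGA5 had too few counts to be tested. BACE1 and BACE2, the membrane-bound aspartic proteases known as beta-secretases, had LFCs of -0.13 and 0.17. Neither list held a gene with an unadjusted p under 0.05 in edgeR, 0 of 3 and 0 of 2 tested. Of 6 regulators of MHC class II and interferon responses, 6 had an LFC above 0, 0 were DEGs by either tool and 1, IRF8, had an unadjusted p under 0.05 with edgeR. SPI1, the lineage factor of myeloid cells, had an LFC of 0.66 and CIITA, the master regulator of MHC class II, one of 0.14. IRF8 and SPI1 are also in the list of microglial markers.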

How the data were processed

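RNA-seq of the rostral SON covered 5 control camels and 5 WD camels. The authors trimmed reads with BBDuk, aligned them to Camdro2 with STAR and deposited counts of read pairs per gene from FeatureCounts, unnormalized and without pooling. The annotation release and the strand setting are not given in the sources used here. Their table of normalized values was not used. The libraries came from separate camels.

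WD was compared with control over the whole count table by edgeR's quasi-likelihood F test (edgeR 4.0.16, R 4.3.3, robust, TMM, filterByExpr) with Benjamini-Hochberg adjustment over 14432 genes. SE is the LFC divided by the square root of F. DESeq2 1.42.0, with its default filter on low means, was an alternative, as were other scalings and filters, RNA integrity number (RIN), fragment size and depth group as covariates, and each library left out. Log2 ratios used a prior count of 0.5. Tests of these ratios had been planned but are not reported, since CTSS was picked with its values known. Correlations were tested by exact permutation. Tables and figures used Python 3.11.15.

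In simulated counts of 14432 genes, edgeR recovered 45% of 100 genes changed by 1 on the log2 scale and 95% of 100 changed by 2. Every simulated gene had the same common spread of these libraries (coefficient of variation 0.285). Genes with a wider spread of their own were not simulated. The limit that a count of 0 allows (3 counts) covers counting error only.

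Symbols came from 2 supplementary tables as they were at hand, 1 of them a shortened copy sorted by p that held 1819 rows, which together gave symbols for 4316 of the 22444 IDs. The complete table was not used here. List counts use the IDs paired in the other table unless the shortened copy is named. The members and lists were chosen with earlier results of these data known. All 9 members and 4 relatives (CTSA, CTSG, CTSV, LGMN) are named, with, from other lists, genes that either tool called and the 2 LFCs per list farthest from 0, and the 5 genes most like CTSS. FGR, KDR, FLT1, ACTA2, OTP, SIM1, CIITA and TFEB were added after their values were seen. No genome of Camdro2 was used, so no coordinates or sequences are given. Results on some genes of the lists are not reported here.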

Additional observations from a re-analysis of the deposited data

Results flagged for a closer look

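CON2 stood apart from the other control libraries for CTSF. Its log2 CPM was 6.34, against 6.83 to 6.96 in the other 4, and the gap made up 0.792 of the group's range. The value rests on 379 counts (80.9 CPM). It was the 1 group flagged of 22 examined, of which chance flags about 1 in 20. CON2 was also the lowest control library for CTSB and CTSD.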

How the results depend on the processing

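No paired analysis was possible because the control and WD libraries came from different camels in separate groups. The number of cathepsins called was 0 in the reported fit and 1 (CTSS) with DESeq2's Wald test and with depth group as a covariate, where the LFC of CTSS was 1.02 and 1.01 and its adjusted p 0.020 and 0.0297. These fits called 209 and 224 of all genes, compared with 72 in the reported fit. It was 0 in the 10 edgeR fits that left out 1 library, in which the LFC of CTSS ranged from 0.82 to 1.14 and its adjusted p from 0.0525 to 0.310. The cause of these and the following changes was not tested. Among other lists, DESeq2 called 1 relative (CTSA) and 1 lysosomal enzyme (SCPEP1). A minimum of 10 counts in every library and depth group as a covariate each called 1 lysosomal enzyme, SCPEP1. CTSL could be fitted by edgeR only in some settings, and CTSH and CTSK not with that minimum.

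Signs turned for members with an LFC near 0, none of them called. With library totals, CTSD was at 0.10 and CTSF at 0.13. With RIN as a covariate, CTSD was at 0.047, CTSF at 0.084 and CTSH at -0.10. CTSH was at -0.30 with the 2 libraries of lowest depth left out, a setting chosen after seeing the data. Leaving out 1 library gave -0.14 to 0.057 for CTSD, -0.19 to 0.031 for CTSF and -0.21 to 0.14 for CTSH. CTSB, CTSC, CTSK and CTSZ stayed above 0 and uncalled in every setting run, but CTSB was at 0.48 with library totals and CTSC at 0.64 with RIN as a covariate.

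The difference between WD and control in the log2 ratio of CTSS to the other members ranged from 0.59 to 0.90 with 1 library left out, and was 0.48 with the median of the other members. The difference in its ratio to CTSK ranged from 0.46 to 0.77. The difference in its ratio to the microglial markers ranged from 0.28 to 0.61. With a prior count of 2 the 3 differences were 0.75, 0.60 and 0.43. Levels of CTSL, CTSH and CTSG are limited by depth, above all in CON13 and WD6.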
